A study of Mus musculus with 12 samples.

Results

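The genes described here are 35 mouse genes of the cardiac sarcomere, its Z-discs and the assembly of myofibrils, taken from a fixed list of gene symbols, each of which was found in the deposited table of 23184 symbols. The list is by known function and has no threshold on a measured value. RNA-seq was done on HL-1, a line derived from mouse atrial heart muscle that the labels give as a cardiac muscle line, grown with 10% fetal bovine serum. In the re-expression cells (RE, genotype label WDR62+), KD cells had also received virus for a flag-tagged wild-type WDR62 (pCDH-WDR62-WT-flag). The knockdown cells (KD, genotype label WDR62-) had received virus with a CRISPR guide to Wdr62, and the control cells (CON, genotype label WT) virus with the empty lentiCRISPRv2 and pCDH vectors. Each group had 4 libraries, numbered 1 to 4 (for CON, the number of the table's column). The labels name a pCDH vector for RE and CON and none for KD, and do not say whether KD was 1 clone or a pool. Nothing in them says that the 4 libraries of a group came from separate cultures, so each p-value measures only the spread between these libraries, which may be technical.

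The sarcomere is the contractile unit of striated muscle. Myosin thick filaments slide along actin thin filaments, on which tropomyosin and the troponin complex open or close the myosin binding sites as calcium rises and falls. Z-discs anchor the thin filaments through alpha-actinin and PDZ-LIM proteins, the M-band crosslinks the thick filaments, titin spans from the one to the other, and costameres, intercalated discs and desmin tie the myofibril to the membrane and to its neighbours. Atrial muscle is known for its own myosin light chains, Myl4 and Myl7, in place of ventricular Myl3 and Myl2.

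Of these genes, Nrap and Ldb3 were those that changed in a comparison (limma on the log2(TPM + 1) scale, Benjamini-Hochberg adjusted p below 0.05 over all genes tested), so their promoters are printed, from the RefSeq promoter table (GRCm38.p6), which held 44 promoters of 32 of the 35 genes. Nrap lies on the minus strand at chr19:56320035-56390037 and Ldb3 on the minus strand at chr14:34526603-34588682 (GENCODE, GRCm38). Shown are the 250 bases before a RefSeq start, in the direction of transcription, chr19:56390039-56390288 for Nrap and chr14:34588682-34588931 for the upstream of the Ldb3 starts. Capitals mark matches, on either strand, to 4 motifs of muscle gene promoters: the CArG box, the MEF2 site, the E-box CANNTG and the M-CAT element CATTCC.
Nrap: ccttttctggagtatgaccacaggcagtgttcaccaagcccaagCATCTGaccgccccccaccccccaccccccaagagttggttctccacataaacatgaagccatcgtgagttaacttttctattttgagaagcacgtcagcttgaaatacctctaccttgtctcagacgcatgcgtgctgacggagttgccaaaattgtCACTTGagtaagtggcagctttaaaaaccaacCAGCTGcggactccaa
Ldb3: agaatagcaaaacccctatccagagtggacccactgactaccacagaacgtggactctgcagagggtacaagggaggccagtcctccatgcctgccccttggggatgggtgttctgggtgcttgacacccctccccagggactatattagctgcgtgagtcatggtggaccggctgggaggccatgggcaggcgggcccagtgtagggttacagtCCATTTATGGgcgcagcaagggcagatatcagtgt

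The Nrap sequence held 3 E-boxes, which begin 206, 48 and 16 bases before the start, and none of the other motifs. E-boxes were found in 66.2% of the 32851 mouse promoters of the table, counted over the same windows of 250 bases before the start. The Ldb3 sequence held 1 CArG box, which begins 35 bases before the start and was found in 1.47% of all promoters, and no match overlapped another. Of the 44 promoters of the 32 sarcomere and Z-disc genes, 7 held a CArG box, those of 6 genes (Actc1, Ldb3, Myl3, Myl7, Myom1 and Nebl). MEF2 sites were in 6 of the 44, those of 5 genes, and in 2.92% of all promoters. M-CAT elements, in 12.6% of all promoters, were in 11 of the 44, those of 11 genes: Ankrd1, Myh6, Myh7, Myl3, Myl7, Mylk3, Nebl, Tmod1, Tnnc1, Tnnt2 and Tpm1. These are matches of letters in short windows and describe the sequences only.

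The levels were deposited by the authors as TPM, a share of all transcripts scaled to a total of 1000000 in each library that corrects for transcript length, so that different genes can be compared. Of the 35 genes, 10 had a mean of at least 1 TPM over the 12 libraries: Myl4, Tpm1, Tnnt2, Tnnc1, Tmod1, Ldb3, Pdlim5, Des, Nrap and Ankrd1. Tpm1, Des and Ankrd1 averaged at least 100 TPM and ranked 164, 338 and 593 among all symbols in CON. Pdlim5, Tnnt2, Tnnc1 and Ldb3 averaged between 10 and 100 TPM, and Myl4, Nrap and Tmod1 between 1 and 10 TPM. The other 25 genes averaged less than 1 TPM, 23 of them staying below it in every library, and 9 were listed at 0 in every library: Myl2, Myl3, Myl7, Mybpc3, Actc1, Actn2, Nebl, Smpx and Cmya5. Of all 23184 symbols of the table, 11774 averaged at least 1 TPM and 6088 were listed at 0 in every library. Whether a listed 0 is a failed estimate was not tested. Of 77 ribosomal protein symbols, 3 were also at 0 throughout, but the 77 can include paralogs that not every cell uses. In bulk RNA, fewer cells of a type and less RNA per cell cannot be told apart.

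**Figure D1:**
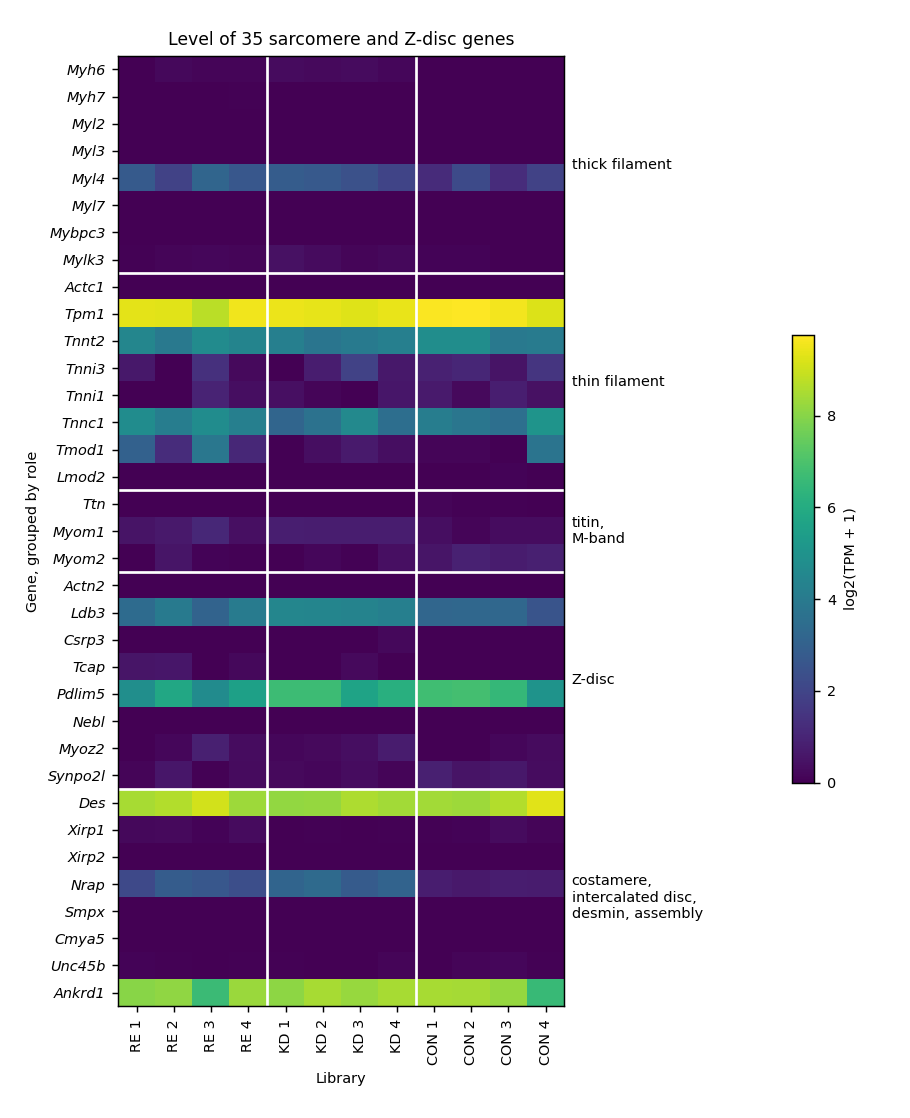
Level of the 35 genes in each library, as log2(TPM + 1), with genes in rows grouped by role and the 4 RE, 4 KD and 4 CON libraries in columns. The rows of Tpm1, Des and Ankrd1 are bright throughout, Nrap and Ldb3 are brighter in KD than in CON, and 25 rows average below 1 TPM.

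The label of a cardiac muscle line was set against 27 cardiac markers outside the sarcomere. Only 8 averaged at least 1 TPM, and 17 were below 1 TPM in every library, among them the atrial peptide gene Nppa, the calcium release channel Ryr2, the phospholamban gene Pln and the transcription factor genes Tbx5 and Tbx20. Of the 8, Gja1 (connexin 43) had 410 to 949 TPM, Atp2a2 (SERCA2) 65.0 to 350 TPM and Cox7a1, a muscle form of a cytochrome oxidase subunit, 13.6 to 93.3 TPM. Nkx2-5 and Gata4, cardiac transcription factors, had 3.60 to 26.7 and 4.26 to 11 TPM, and Cox6a2, Mef2c and Casq2 had 2.28 to 19.8, 0.942 to 2.90 and 0.251 to 2.43 TPM. Of 12 fibroblast markers 9 averaged at least 1 TPM, with summed levels of 35100 to 46300 TPM in RE, 29100 to 44300 TPM in KD and 38700 to 53500 TPM in CON, most of it S100a4, while Lum and Tcf21 were listed at 0. Skeletal muscle markers (3 of 9 at 1 TPM or more) summed to 7.35 to 14.3 TPM in RE, 8.11 to 10.2 TPM in KD and 21.2 to 43.5 TPM in CON. Smooth muscle markers (5 of 7) summed to 351 to 1560 TPM in RE, 786 to 1220 TPM in KD and 570 to 1160 TPM in CON. The single epithelial marker at 1 TPM or more, Krt19, averaged 0.794 TPM in RE, 1.29 TPM in KD and 26.5 TPM in CON, and the fibroblast marker Dcn 3.20 TPM in RE, 5.05 TPM in KD and 41.8 TPM in CON. Of the 9 tested fibroblast markers, 2 fell in KD against CON (Dcn and Col1a1), as did 3.61% of all tested genes. In RE against KD 2 fell (Col1a1 at -1.05 ± 0.19, limma adjusted p = 0.0311, and Col1a2 at -0.85 ± 0.17, adjusted p = 0.0416), as did 0.858% of all tested genes. In RE against CON 4 fell (Dcn, Col1a1, Col1a2 and Col3a1), as did 3.63% of all tested genes, and 0 of these markers rose in any comparison. The part of these markers in the differences below was not tested. All 6 endothelial markers were below 1 TPM in every library, as were all immune markers but Cd68.

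Wdr62, the targeted gene, had 1.47, 0.772, 0.826 and 1.99 TPM in RE libraries 1 to 4, 1.40, 0.944, 1.37 and 0.881 TPM in KD libraries and 7.45, 6.61, 6.50 and 3.38 TPM in CON libraries. It was lower in every KD library than in every CON library, and RE overlapped KD (log2 fold change of RE against KD 0.05 ± 0.25, SE; limma adjusted p = 0.895). The labels do not say whether the table would count transcripts of the introduced WDR62, so RE below means the libraries labelled so. Libraries CON 4, RE 1 and RE 3 stood apart in their long transcripts: over the 2266 tested genes with the longest transcripts (4314 bases or more), the median deviation of log2(TPM + 1) from the gene's mean over all libraries was -0.988 to -0.708, against -0.200 to 0.683 in the other 9. The groups differed among those 9 too. RE 2 and RE 4 were at -0.100 and -0.122, and CON 1, CON 2 and CON 3 at 0.683, 0.663 and 0.457. KD libraries 1 to 4 were at 0.551, 0.526, -0.200 and 0.0729. The median log2 fold change over all tested genes was -0.29 for RE against KD, -0.27 for RE against CON and -0.01 for KD against CON, so changes of RE are to be read against that shift. Without CON 4, RE 1 and RE 3 these medians were, in the same order, -0.104, -0.22 and -0.164.

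Thick filament genes were low. Of 8, Myl4 alone, the atrial essential light chain of myosin, averaged at least 1 TPM. Its levels were 5.86, 2.82, 8.12 and 5.33 TPM in RE libraries 1 to 4, 6.14, 5.55, 4.32 and 2.97 TPM in KD libraries, and 1.31, 3.51, 1.35 and 2.76 TPM in CON libraries. The groups overlapped, as CON 2 exceeded KD 4 and RE 2. Myl4 averaged 2.13-fold more TPM in KD than in CON (log2 fold change 0.86 ± 0.32, limma adjusted p = 0.114) and 2.48-fold more in RE than in CON (1.01 ± 0.32, adjusted p = 0.083), and neither passed the test. Without CON 4 the RE difference passed it (1.10, adjusted p = 0.0165), as it did without RE 2 (1.25, adjusted p = 0.0384). Of all tested genes, 52.8% and 5.21% passed in RE against CON without CON 4 and without RE 2.

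The cardiac myosin heavy chains Myh6 and Myh7 did not exceed 0.209 TPM in any library. Myh6 had 0.0176, 0.155, 0.0827 and 0.102 TPM in RE libraries, 0.209, 0.187, 0.206 and 0.137 TPM in KD libraries, and 0, 0.0237, 0 and 0.00817 TPM in CON libraries. All KD values lay above all CON values, at a level far below 1 TPM. Mylk3, the cardiac myosin light chain kinase, had 0.101 to 0.360 TPM in KD and at most 0.0652 TPM in CON. When genes below 1 TPM were tested too, both were higher in KD than in CON, Myh6 by 0.23 ± 0.04 on the log2 scale (adjusted p = 0.0022) and Mylk3 by 0.23 ± 0.06 (adjusted p = 0.024). The light chains Myl2, Myl3 and Myl7 and the myosin binding protein Mybpc3 were listed at 0.

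Thin filament genes were the best represented, with 4 of 8 at 1 TPM or more. Tpm1, alpha-tropomyosin, which is spliced into muscle and non-muscle forms that a level per symbol does not separate, had 656, 638, 425 and 750 TPM in RE libraries, 708, 671, 623 and 682 TPM in KD libraries, and 820, 860, 770 and 596 TPM in CON libraries. RE 3 and CON 4 were the lowest libraries, and all KD libraries lay below CON 1, CON 2 and CON 3. The fold change on the log2 scale was -0.17 ± 0.17 for KD against CON (adjusted p = 0.647) and -0.32 ± 0.17 for RE against CON (adjusted p = 0.223). Without CON 4, RE against CON gave -0.43 (adjusted p = 0.0454), a fit in which 52.8% of all tested genes changed.

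Of the troponin genes, 2 were expressed above 10 TPM. Tnnt2, cardiac troponin T, which binds the complex to tropomyosin, had 21.4, 14.5, 24.8 and 20 TPM in RE libraries, 17.4, 12.9, 14.9 and 17.4 TPM in KD libraries, and 26.7, 26.2, 14.4 and 15.7 TPM in CON libraries. Tnnc1, the calcium-binding troponin C of cardiac and slow muscle, had 25.9, 16.7, 25.5 and 17.6 TPM in RE libraries, 8.08, 11.7, 23.2 and 10.6 TPM in KD libraries, and 16.7, 13.2, 10.8 and 31.9 TPM in CON libraries. All groups overlapped for both genes, and the 3 highest Tnnc1 levels were those of CON 4, RE 1 and RE 3. The largest difference of either gene was that of Tnnc1 in RE against KD, 0.71 ± 0.35 (adjusted p = 0.195). The inhibitory subunits were low: Tnni3, the cardiac troponin I, averaged 0.568 ± 0.674 TPM in RE, 1.03 ± 1.24 TPM in KD and 1.05 ± 0.6 TPM in CON (SD, n = 4 each), reaching 1 TPM in the mean of KD and CON, and Tnni1, the slow form, did not exceed 0.960 TPM. All troponin I genes together averaged 1.76 TPM in RE, 1.75 TPM in KD and 2.38 TPM in CON, against 23.2, 18.2 and 25.3 TPM for troponin T in RE, KD and CON.

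Tmod1, which caps the pointed ends of thin filaments, had the most uneven levels of the 10 genes. It had 7.12, 1.35, 13.7 and 1.15 TPM in RE libraries, 4.28e-07, 0.274, 0.634 and 0.298 TPM in KD libraries, and 0.0910, 0.0903, 3.73e-07 and 12.4 TPM in CON libraries. All 4 RE libraries were above all 4 KD libraries, and the 3 highest libraries were RE 3, CON 4 and RE 1, those that stood apart in long transcripts. The log2 fold change was 1.95 ± 0.82 for RE against KD (adjusted p = 0.162; exact two-sided permutation p = 0.0286, the smallest that 4 against 4 allows). Against CON it was 1.31 ± 0.82 in RE (adjusted p = 0.268), and without CON 4 it was 2.23 (adjusted p = 0.00704), where 52.8% of all tested genes changed. Exons of Tmod1 overlap those of Tstd2 on the opposite strand over 1287 bases, Tstd2 averaged 17.2 TPM, and the sources used here do not give whether reads were counted by strand. The other cardiac thin filament genes, Actc1, the cardiac alpha-actin, and Lmod2, which lengthens thin filaments, were listed at 0 and at no more than 0.0678 TPM.

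Titin and the M-band were below 1 TPM on average. Ttn, the giant spring of the sarcomere, reached 0.0942 TPM. Myom1, an M-band crosslinker, had 0.422, 0.604, 1.11 and 0.319 TPM in RE libraries, 0.763, 0.729, 0.702 and 0.702 TPM in KD libraries, and 0.301, 0.102, 0.256 and 0.242 TPM in CON libraries. Myom2, another crosslinker, had 0.0217, 0.452, 0.0677 and 0.0455 TPM in RE libraries, 0, 0.115, 0.0505 and 0.316 TPM in KD libraries, and 0.454, 0.875, 0.658 and 0.803 TPM in CON libraries. The pair stood in opposite order, with Myom1 above CON and Myom2 below CON in every RE and KD library. When genes below 1 TPM were tested too, Myom1 was higher in KD (log2 fold change 0.50 ± 0.12, adjusted p = 0.026) and Myom2 was lower in KD (-0.60 ± 0.13, adjusted p = 0.0122) and in RE (-0.57 ± 0.13, adjusted p = 0.0209), each against CON.

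**Figure D2:**
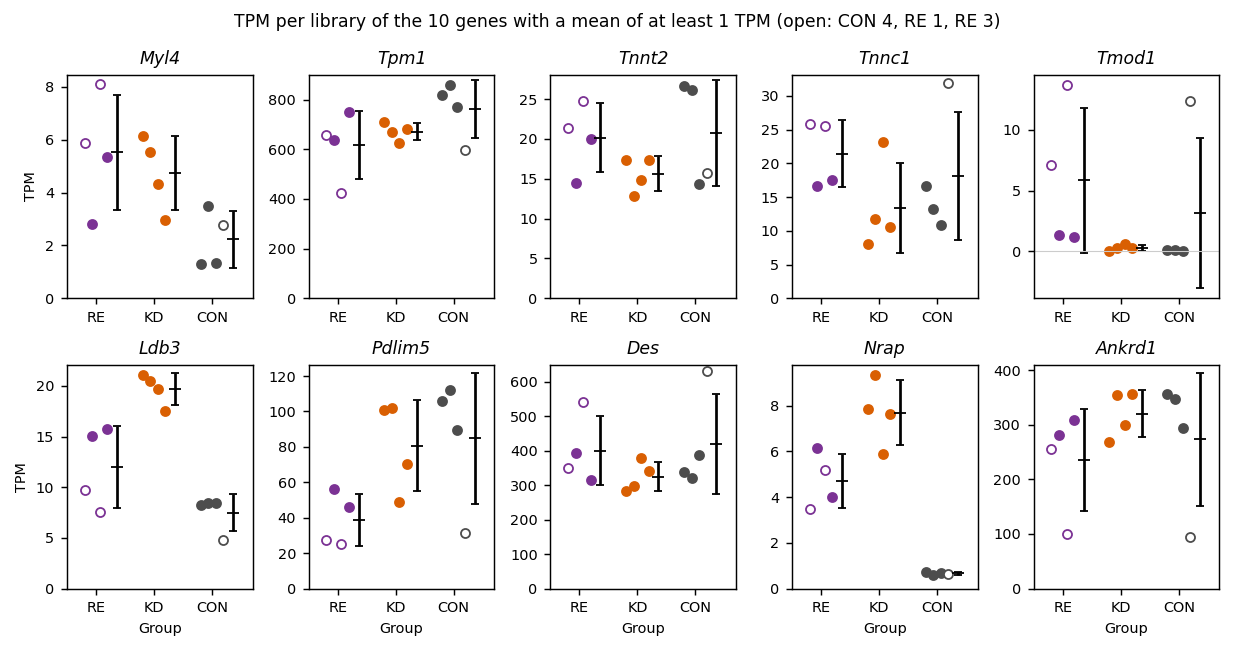
TPM in each library of the 10 genes with a mean of at least 1 TPM, by group (RE, KD, CON, each n = 4); points are libraries, open for CON 4, RE 1 and RE 3, and bars are the mean ± SD. The 4 CON libraries of Nrap lie between 0.596 and 0.724 TPM and its 4 KD libraries between 5.91 and 9.36 TPM, while the open points of Tmod1, at 7.12 to 13.7 TPM, are its 3 highest.

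At the Z-disc, Ldb3 rose in KD. Ldb3 (ZASP or Cypher), a PDZ-LIM protein that binds alpha-actinin, had 9.74, 15.1, 7.53 and 15.8 TPM in RE libraries, 21.1, 20.5, 19.7 and 17.5 TPM in KD libraries, and 8.20, 8.49, 8.49 and 4.81 TPM in CON libraries. KD libraries were the highest without overlap, RE 1, RE 2 and RE 4 lay between KD and CON, and RE 3 lay within the range of CON. Its mean was 2.63-fold higher in KD than in CON (log2 fold change 1.31 ± 0.25, limma adjusted p = 0.00507; exact permutation p = 0.0286). RE was lower than KD in all libraries (-0.72 ± 0.25, adjusted p = 0.133; exact permutation p = 0.0286), and against CON the difference of RE was 0.59 ± 0.25 (adjusted p = 0.157). That last difference depended on the scaling: it was 0.87 with median-of-ratios scaling (adjusted p = 0.00156), 1.01 after quantile normalization (adjusted p = 0.000377) and 0.81 after a correction for transcript length (adjusted p = 0.00165).

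Pdlim5 (ENH), another PDZ-LIM protein, which brings protein kinase C to the Z-disc, did not follow Ldb3. It had 27.5, 56.4, 25.4 and 45.8 TPM in RE libraries, 101, 102, 49.1 and 70.2 TPM in KD libraries, and 106, 112, 89.6 and 31.5 TPM in CON libraries. RE lay below KD apart from RE 2, which exceeded KD 3, and the 3 lowest libraries were RE 3, RE 1 and CON 4. The log2 fold change was -1.05 ± 0.41 for RE against KD (adjusted p = 0.151), -1.04 ± 0.41 for RE against CON (adjusted p = 0.139) and 0.02 ± 0.41 for KD against CON (adjusted p = 0.991). Without CON 4 the RE differences passed the test, at -1.05 against KD (adjusted p = 0.0364) and -1.45 against CON (adjusted p = 0.00373). So did 23.7% and 52.8% of all tested genes in these 2 comparisons. The other Z-disc genes did not reach 1 TPM in any library: Actn2, the muscle alpha-actinin that Ldb3 binds, and the nebulin-like Nebl were listed at 0, and Csrp3 (muscle LIM protein), Tcap (telethonin, the titin cap), Myoz2 (calsarcin-1) and Synpo2l did not exceed 0.161, 0.507, 0.835 and 0.834 TPM.

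Of the 2 genes that passed the test, Nrap had the larger log2 fold change in KD against CON. Nrap (nebulin-related anchoring protein) is a scaffold on which actin and alpha-actinin gather in myofibril assembly, and in the heart it sits at intercalated discs. It had 3.5, 6.14, 5.20 and 4.01 TPM in RE libraries, 7.88, 9.36, 5.91 and 7.64 TPM in KD libraries, and 0.724, 0.596, 0.701 and 0.654 TPM in CON libraries. Every KD and RE library lay above every CON library, and KD and RE overlapped only through RE 2 and KD 3. Mean TPM was 11.5-fold higher in KD than in CON (log2 fold change 2.37 ± 0.19, limma adjusted p = 8.69e-06) and 7.05-fold higher in RE than in CON (1.75 ± 0.19, adjusted p = 0.00013), with an exact permutation p of 0.0286 for each. Between RE and KD the difference was -0.62 ± 0.19 (adjusted p = 0.113; exact permutation p = 0.0571), and after the correction for transcript length it was 0.06 (adjusted p = 0.908). Libraries CON 4, RE 1 and RE 3 did not stand apart for this gene. Its mean in CON, 0.669 TPM, was below 1 TPM, so it was tested only through its levels in KD and RE.

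Des and Ankrd1, the other expressed genes of this group, were abundant in all libraries. Des, desmin, the intermediate filament of muscle cells, had 350, 394, 542 and 315 TPM in RE libraries, 284, 297, 378 and 340 TPM in KD libraries, and 337, 321, 389 and 632 TPM in CON libraries. Ankrd1 (CARP), a stress-responsive protein that binds titin in the I-band and acts in the nucleus, had 256, 281, 99.8 and 308 TPM in RE libraries, 269, 355, 300 and 357 TPM in KD libraries, and 356, 347, 294 and 95.1 TPM in CON libraries. The groups of both genes overlapped, and CON 4 and RE 3 held the 2 highest Des levels and the 2 lowest Ankrd1 levels. The largest difference of Des was -0.32 ± 0.22 in KD against CON (adjusted p = 0.453), and that of Ankrd1 was -0.55 ± 0.43 in RE against KD (adjusted p = 0.356). Of the remaining 5, Smpx and Cmya5, proteins of the costamere, were listed at 0, and Xirp1 and Xirp2, proteins of the intercalated disc, and Unc45b, the muscle myosin chaperone, did not exceed 0.225, 0.0129 and 0.139 TPM.

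Counted over the 10 genes with a mean of at least 1 TPM, which are the only ones tested, 2 rose in KD against CON (Ldb3 and Nrap) and 0 fell, while 10.2% of the 11774 tested genes changed in that comparison (6.6% rose and 3.61% fell). The groups did not overlap for these 2 genes, against 18.9% of all tested genes. In RE against KD, 0 of the 10 passed the limma test (all tested genes, 1.04%), 4 had an unadjusted p below 0.05 (Nrap, Ldb3, Pdlim5 and Tmod1; all tested genes, 28.0%), and the groups did not overlap for 2, Tmod1 and Ldb3 (all tested genes, 14.3%). In RE against CON, 1 rose (Nrap) and 0 fell (all tested genes, 6.33% changed, 2.7% rose and 3.63% fell), and Nrap alone did not overlap (all tested genes, 9.22%). The median log2 fold change of the 10 was -0.08 in KD against CON, 0 in RE against KD and 0.15 in RE against CON. KD against CON and RE against CON share the CON libraries, and RE against KD shares its KD libraries with KD against CON. Nrap averaged 0.669 TPM in CON and reached the filter of 1 TPM through KD and RE. Tmod1 averaged 0.302 TPM in KD and reached it through RE and CON 4. Without CON 4 the count for KD against CON was also 2 (Ldb3 and Nrap). It was 4 for RE against KD (Tmod1 higher; Ldb3, Nrap and Pdlim5 lower), a comparison that CON 4 enters through the shared estimate of the spread, and 5 for RE against CON (Myl4, Nrap and Tmod1 higher; Pdlim5 and Tpm1 lower). Of all tested genes, 20.5%, 23.7% and 52.8% changed in these 3 comparisons without CON 4. Without CON 4, RE 1 and RE 3 the counts were 4 in KD against CON (Ldb3, Myl4 and Nrap higher; Tpm1 lower; all tested genes, 39.4%), 0 in RE against KD (all tested genes, 0.425%) and 4 in RE against CON (Ldb3, Nrap and Tmod1 higher; Pdlim5 lower; all tested genes, 32.1%).

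**Figure D3:**
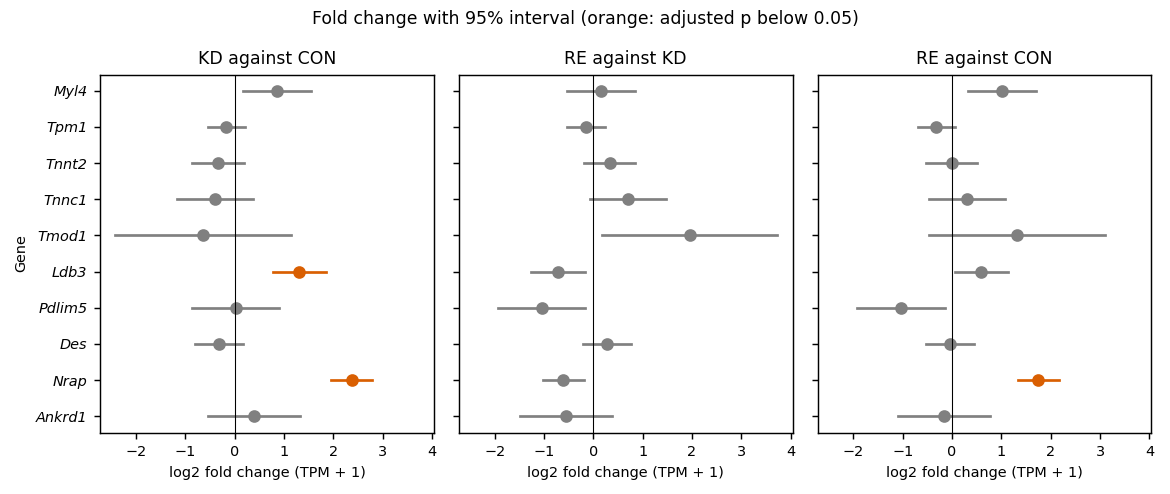
Fold change of the 10 tested genes on the log2(TPM + 1) scale with its 95% interval from limma, for KD against CON, RE against KD and RE against CON; orange marks an adjusted p below 0.05. Nrap is orange at 2.37 and 1.75 in the outer panels and Ldb3 at 1.31 in the left one, and no gene is orange for RE against KD.

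Where the cardiac genes were low, other genes of the same protein families were expressed. Among actins, Actc1 was listed at 0, whereas the non-muscle Actb had 1460 to 3430 TPM and the smooth muscle Acta2 263 to 1430 TPM. Cardiac myosin heavy chains held 0.0513% of the family's TPM in RE, 0.0485% in KD and 0.00335% in CON (means of 4), and the non-muscle Myh9 had 92.4 to 641 TPM. Myl4 accounted for the cardiac share of essential light chains, 3.90% in RE, 4.57% in KD and 2.55% in CON. Actn2 was at 0 beside 85.1 to 244 TPM of Actn1 and 117 to 319 TPM of Actn4, the alpha-actinins of non-muscle cells, and Unc45b held less than 1% beside Unc45a. Of troponin T, the cardiac gene held 87.4% ± 6.54 in RE, 86.0% ± 2.59 in KD and 81.2% ± 6.97 in CON (SD, n = 4 each). Of troponin C, the cardiac gene held 95.7% ± 1.51 in RE, 86.2% ± 9.69 in KD and 91.6% ± 4 in CON. Of the little troponin I, cardiac genes held 49.1% ± 44.6 in RE, 82.9% ± 19.7 in KD and 73.2% ± 21.6 in CON. The troponin families hold only cardiac and skeletal genes, so their shares are not comparable with those of families that include non-muscle genes. Exons of Tnnc2, the skeletal troponin C gene, overlap those of Ube2c on the opposite strand over 592 bases, and Ube2c averaged 358.8 TPM. Reads shared by near-identical family members, actins above all, can be split by the authors' counting, so the family shares are uncertain.

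**Figure D4:**
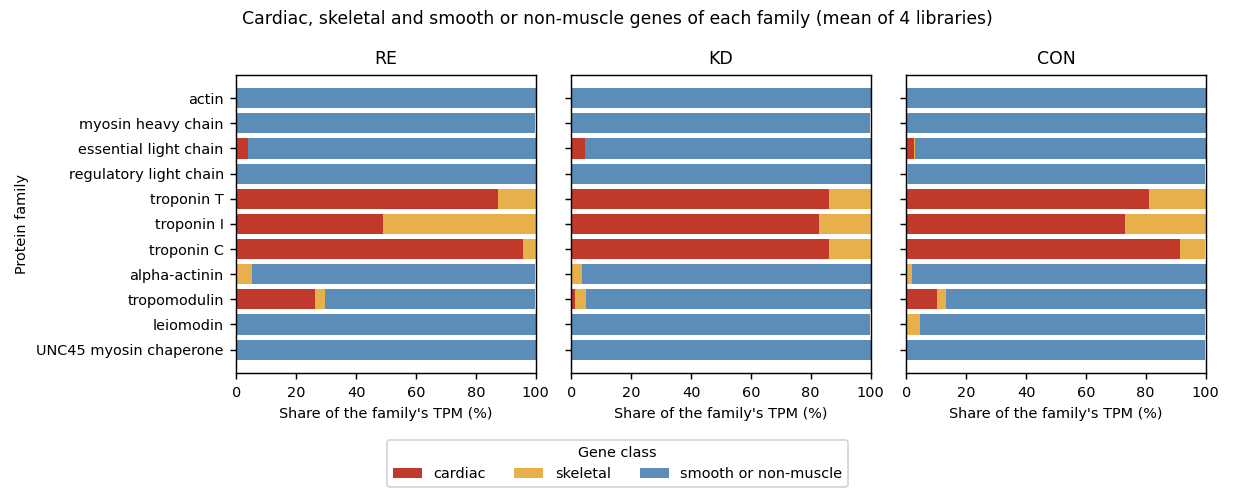
Share of each protein family's summed TPM held by its cardiac, skeletal and smooth or non-muscle genes, as the mean of 4 libraries, in RE, KD and CON. Cardiac genes hold at least 81.2% of troponin T and 86.2% of troponin C in each group and none of actin, regulatory light chain or alpha-actinin.

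A list of 51 other Z-disc, costamere and myofibril maintenance genes, of which 39 were tested, gave 6 that rose in KD against CON and 0 that fell (all tested genes, 6.6% and 3.61%), with a median log2 fold change of 0.20 (all tested genes, -0.01). The 4 largest were Synm (synemin, which joins desmin filaments), Trim54 (a muscle RING finger ubiquitin ligase), Hspb7 (a small heat shock protein of the heart) and Pdlim1 (a PDZ-LIM protein that binds alpha-actinin). Synm had 3.44 to 5.66 TPM in KD and 0.538 to 1.22 TPM in CON (1.69 ± 0.22, adjusted p = 0.000382). It averaged 0.844 TPM in CON and passed the filter of 1 TPM through KD and RE. Trim54 had 24.6 to 32.3 TPM in KD and 7.38 to 17.7 TPM in CON (1.46 ± 0.35, adjusted p = 0.0176, lost without KD 4 or any of CON 1, CON 2 and CON 3, at 0.0564 to 0.0587, and at 0.0676 with median-of-ratios scaling and 0.0516 after quantile normalization). Hspb7 had 26.8 to 34.1 TPM in KD and 6.93 to 16.2 TPM in CON (1.36 ± 0.28, adjusted p = 0.00876). Pdlim1 had 15.4 to 17.8 TPM in KD and 5.64 to 8.34 TPM in CON (1.16 ± 0.17, adjusted p = 0.000791). Each of the 4, which were picked by size of change, lay above CON in all KD libraries. The 2 groups did not overlap, in either direction, for 18.9% of all tested genes. Without CON 4 the count in KD was 11 of 39, 9 higher and 2 lower (all tested genes, 20.5%), and without CON 4, RE 1 and RE 3 it was 20, 12 higher and 8 lower (all tested genes, 39.4%).

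In RE against CON, 3 genes of that list rose and 4 fell (all tested genes, 2.7% and 3.63%). Those that rose were led by Pdlim1 (1.58 ± 0.17, adjusted p = 9.45e-05) and Synm (1.46 ± 0.22, adjusted p = 0.00131). Those that fell were led by Synpo (synaptopodin, -1.10 ± 0.22, adjusted p = 0.00905) and the formin Fhod3 (-1.08 ± 0.28, adjusted p = 0.0399). Fhod3 lost its call without any of 11 libraries (all but CON 4), at 0.0503 to 0.138. It also lost it with RE and CON fitted alone (adjusted p = 0.13). The length correction took the calls of Synpo (adjusted p = 0.105) and Fhod3 (adjusted p = 0.0865). With RE and CON fitted alone the count of the list was 3, Pdlim1 and Synm higher and Synpo lower (all tested genes, 3.47%). In RE against KD only Csrp1, a LIM protein of the actin cytoskeleton, changed (all tested genes, 1.04%). It had 338 to 366 TPM in RE and 450 to 631 TPM in KD (-0.60 ± 0.12, adjusted p = 0.0429). That call was lost in 14 of 23 alternatives. Without CON 4 the count in RE against KD was 11 (all tested genes, 23.7%), and leaving out any other library gave 0 to 3. In RE against CON it was 25 without CON 4 (all tested genes, 52.8%), and 3 to 6 without any other. Under the replicate block of KD and RE alone the count for RE against KD was 10, 1 higher and 9 lower (all tested genes, 17.2%).

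Of the skeletal muscle counterparts of these genes, 26 in all, 9 were tested. In KD against CON 1 rose and 2 fell (all tested genes, 6.6% and 3.61%), with a median log2 fold change of -0.41. In RE against CON 0 rose and 1 fell (all tested genes, 2.7% and 3.63%). By limma 0 changed in RE against KD (all tested genes, 1.04%), where 2 had an unadjusted p below 0.05 (all tested genes, 28.0%). Acta1, skeletal alpha-actin, had 0.197 to 0.450 TPM in KD and 2.25 to 4.68 TPM in CON (-1.66 ± 0.31, adjusted p = 0.00409), and fell in RE too (0 to 1.52 TPM; -1.48 ± 0.31, adjusted p = 0.0114). It averaged 0.645 TPM in RE and 0.340 TPM in KD, and passed the filter of 1 TPM through CON. Mylpf, the fast skeletal regulatory light chain, had 1.75 to 2.52 TPM in KD and 4.80 to 6.39 TPM in CON (-1.14 ± 0.18, adjusted p = 0.00181). Actn3, the fast-fibre alpha-actinin, had 13.2 to 18.5 TPM in KD and 6.72 to 10.5 TPM in CON (0.81 ± 0.22, adjusted p = 0.0344, lost without any of KD 1, KD 2, KD 4, CON 1, CON 2 and CON 3, at 0.0523 to 0.114). Myod1, the skeletal muscle determination factor, had 0 to 0.133 TPM in RE, 0 to 0.125 TPM in KD and 4.27 to 8.18 TPM in CON. In each of the RE and KD libraries Myod1 and Acta1 lay below all CON libraries, while Nrap lay above them. Of all tested genes, 18.9% did not overlap in KD against CON and 9.22% in RE against CON. Without CON 4, 3 genes of the list changed in RE against CON (all tested genes, 52.8%) and 1 in RE against KD (all tested genes, 23.7%).

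Of the smooth muscle and non-muscle counterparts, 26 in all, 23 were tested. In KD against CON 2 rose and 0 fell (all tested genes, 6.6% and 3.61%), with a median log2 fold change of 0.09. Lmod1, the smooth muscle leiomodin, had 9.09 to 19.8 TPM in RE, 24.5 to 32.2 TPM in KD and 4.43 to 6.67 TPM in CON. It rose in KD (2.18 ± 0.22, adjusted p = 6.71e-05) and in RE (1.21 ± 0.22, adjusted p = 0.00608), each against CON. Cnn2, a calponin, rose in KD as well (1.09 ± 0.13, adjusted p = 0.00018), with 527 to 671 TPM in KD and 260 to 345 TPM in CON, and in RE at 396 to 484 TPM (0.56 ± 0.13, adjusted p = 0.0193, lost without any of RE 2, CON 1, CON 2 and CON 3). In RE against CON 3 of these counterparts rose and 0 fell (all tested genes, 2.7% and 3.63%). The third was Actg2, smooth muscle gamma-actin, at 24.6 to 110 TPM in RE and 6.02 to 16.9 TPM in CON (2.15 ± 0.49, adjusted p = 0.0213, lost without RE 1, RE 4 or CON 3). The count for KD against CON was 4 without KD 3 (all tested genes, 10.8%). That for RE against CON was 14 without CON 4 (all tested genes, 52.8%) and 1 without CON 3 (all tested genes, 3.54%). The count for RE against KD was 0 by limma (all tested genes, 1.04%), with 9 at an unadjusted p below 0.05 (all tested genes, 28.0%). It was 7 without CON 4 (all tested genes, 23.7%) and 5, all lower, under the replicate block (all tested genes, 17.2%). Without KD 3 or RE 2 it was 3 (all tested genes, 3.55% and 4.39%). Of the cardiac markers outside the sarcomere, 8 were tested and Nkx2-5 alone changed with all libraries in the fit. Of all tested genes, 10.2% changed in KD against CON and 6.33% in RE against CON. Nkx2-5 had 12.9 to 26.7 TPM in RE, 9.79 to 14.8 TPM in KD and 3.60 to 8.50 TPM in CON. It rose in RE against CON (1.63 ± 0.27, adjusted p = 0.00309) and in KD against CON (1.10 ± 0.27, adjusted p = 0.0229), the KD call being lost without any of KD 1, KD 4, CON 1, CON 2 and CON 3, at 0.0526 to 0.0825, and at 0.0981 with median-of-ratios scaling and 0.116 after quantile normalization. Without CON 4, 4 of these markers changed in RE against CON (Cox7a1 and Nkx2-5 higher, Atp2a2 and Gata4 lower) and 2 in RE against KD (Atp2a2 and Gja1 lower). Of all tested genes, 52.8% and 23.7% did so. Under the replicate block 3 of these markers changed in RE against KD (Cox7a1 higher, Atp2a2 and Gja1 lower), and so did 17.2% of all tested genes. With RE and CON fitted alone, the RE calls of Acta1, Cnn2 and Actg2 were lost, at adjusted p of 0.0597, 0.0723 and 0.0751.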

How the data were processed

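RNA-seq levels of HL-1 cells were analysed from 1 table of 23184 symbols by 12 libraries, 4 in each of RE, KD and CON. Its values are TPM, which the authors deposited. Each column sums to 1000000, so the depth is unknown and no counting interval is given. The submitters' processing notes name Trim Galore 0.6.6, TopHat2 2.1.1, Cufflinks 2.2.1 and the build mm10; neither the step that led to TPM nor the use of strand is given in the sources used here. Columns named WT were taken as CON, the group whose genotype label is WT, and their column numbers were not used to pair them. Treatment labels carry a different number in each KD and RE library, so the shared treatment protocol was followed.

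The 11774 genes averaging 1 TPM or more were log2-transformed after adding 1, which understates fold changes of low genes, and fitted together in limma 3.58.1 (R 4.3.3; 1 mean per group, all 12 libraries, mean-variance trend, two-sided). Changed means a Benjamini-Hochberg adjusted p below 0.05 over all tested genes in that comparison, and every adjusted p in the text is from limma. Exact two-sided permutation tests of 4 against 4 stand beside single genes, with a smallest possible p of 0.0286. Values after ± are SE for fold changes and SD for levels. Every gene with a mean of at least 1 TPM is named with its 12 values, and of other lists at most 4 changed genes per comparison by size of change. The members, lists, family classes and tests were chosen with earlier results of these data known.

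Alternatives were a pseudocount of 0.1, no filter or a mean of at least 5 TPM, quantile normalization or median-of-ratios scaling, a fit of the compared groups alone, a replicate block, each library left out, CON 4, RE 1 and RE 3 left out, and a loess correction for transcript length (GENCODE, GRCm38; 11321 tested genes, 96.2%, had a length). Counts of the other lists under these alternatives were added after seeing the data. The limma step was tested on simulated data. Cavin4 was matched to its older symbol Murc through RefSeq. Same-numbered KD and RE libraries did not deviate together in all 4 pairs, so the numbers were not taken as pairs.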

Additional observations from a re-analysis of the deposited data

Results flagged for a closer look

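Of 30 groups of 4 libraries (10 genes in RE, KD and CON), 4 held a library whose gap to the nearest other, divided by the group's range, exceeded Dixon's 95% critical value for 4 samples, and chance flags about 1 group in 20. Gap and range were taken on the log2(TPM + 1) scale, while the levels below are in TPM. For Tmod1, CON 4 at 12.4 TPM stood above the other CON libraries, at 0.0910 TPM or less, with a gap ratio of 0.966. For Ldb3, CON 4 at 4.81 TPM stood below the other CON libraries, at 8.20 to 8.49 TPM, with a ratio of 0.937. For Ankrd1, RE 3 at 99.8 TPM stood below the other RE libraries, at 256 TPM or more, with a ratio of 0.835, and CON 4 at 95.1 TPM stood below the other CON libraries, at 294 TPM or more, with a ratio of 0.854. CON 4 and RE 3 are also the libraries with the lowest levels of long transcripts, at median deviations of -0.820 and -0.988, whose part in these values was not tested gene by gene.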

How the results depend on the processing

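The rises of Nrap and Ldb3 in KD against CON and of Nrap in RE against CON kept their direction and their call under every alternative that could be run, at log2 fold changes of 2.17 to 3.33, 1.14 to 1.42 and 1.64 to 2.62 (at a mean of at least 5 TPM Nrap is not tested). For KD against CON the count of changed genes was 2, with 6 under no filter (all genes, 9.75%) and 1 at a mean of at least 5 TPM (all tested genes, 8.22%). It was 4 without CON 4, RE 1 and RE 3 (all tested genes, 39.4%), and 2 to 2 with each library left out. For RE against KD it was 0, with 2 under the replicate block of KD and RE alone (Pdlim5 lower, Tmod1 higher; all tested genes, 17.2%). With each library left out it was 0 to 4, the 4 being without CON 4 (all tested genes, 23.7%). For RE against CON it was 1, with 2 under no filter (all genes, 6.28%) and 0 at a mean of at least 5 TPM (all tested genes, 4.51%). It was 2 with median-of-ratios scaling (all tested genes, 9.3%), 3 after quantile normalization (10.0%) and 2 after the length correction (13.1%). Without CON 4, RE 1 and RE 3 it was 4 (all tested genes, 32.1%). With each library left out it was 1 to 5, the 5 being without CON 4 (all tested genes, 52.8%). No paired analysis was possible for the comparisons with CON because its columns were matched by name to the group only and not to its single samples; same-numbered KD and RE libraries had correlations of deviations of -0.554, 0.652, 0.239 and -0.252, so the block rests on a number only.

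Some differences that did not pass the test changed sign. With each library left out, those of KD against CON ranged from -0.97 to 0.28 for Tmod1, -0.40 to 0.23 for Pdlim5 and -0.06 to 0.57 for Ankrd1. Those of RE against KD ranged from -0.03 to 0.39 for Myl4 and -0.25 to 0.02 for Tpm1. Those of RE against CON ranged from -0.16 to 0.13 for Tnnt2, -0.20 to 0.17 for Des and -0.61 to 0.21 for Ankrd1. Nrap in RE against KD stayed at -0.73 to -0.51 with each library left out and changed sign only under the length correction. Without CON 4, RE 1 and RE 3, Tmod1 was at 0.28, Pdlim5 at -0.40 and Ankrd1 at -0.06 in KD against CON, Myl4 at -0.19 and Tpm1 at 0.04 in RE against KD, and Des at 0.02 in RE against CON. Median-of-ratios scaling gave 0.18 for Tpm1 in RE against KD, and 0.29 for Tnnt2, 0.27 for Des and 0.15 for Ankrd1 in RE against CON; quantile normalization gave -0.00241 for Pdlim5 in KD against CON and 0.36 for Tnnt2 in RE against CON. The length correction gave -0.04 for Myl4 and 0.06 for Nrap in RE against KD, the same with the replicate block, and 0.31 for Des in RE against CON. Both scalings bring the median of all tested genes to about 0. The cause of the other changes was not tested. With no counts, the limit that depth sets below 1 TPM is unknown.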
